A study of Mus musculus with 3 samples.

Results

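AP-1 and Egr serum-response factors are the transcription factors of the Fos, Jun and Egr families together with serum response factor, most of them genes that cultured cells switch on within minutes of meeting serum. They were followed here in mouse ovarian surface epithelial cells, the single cell layer that covers the ovary, before and after the cells became mesenchymal in high serum. The members were taken by name from the gene column of the array files: Fos, Fosb, Fosl1, Fosl2, Jun, Junb, Jund (listed there under its older name Jund1), Egr1, Egr2 and Srf. Of these 10 genes, 8 were found, with 10 of the 20371 non-control probes, Fos and Srf having 2 probes each, and they are 8 of the 9957 named genes tested. Fosl2 and Egr2 matched no probe by name and were not analysed here.

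The study asked what an epithelial to mesenchymal transition does to transcription, and compared 2 states of the same cells on 2-colour Agilent oligonucleotide arrays. Cells came from ovaries of virgin female C57/Bl6 mice that had been superovulated with gonadotropins, mated and culled soon after. Each of 3 separate cultures was split. The epithelial part stayed in 2.5% fetal bovine serum (FBS), and the mesenchymal part was grown for 1 week in 15% FBS. The labels name no transgene, mutation or added growth factor in either state, and they do not say how many animals went into a culture. Serum concentration and phenotype changed together, so the effect of one cannot be told apart from that of the other. Cells were collected at 80% confluence, and 4 µg of total RNA per sample was amplified and labelled. The paired RNAs went onto 2 arrays per culture, once in each dye assignment, which gave 6 arrays and n = 3 cultures. In RNA from bulk cultures, fewer cells of a type and less RNA per cell cannot be told apart.

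A value is the log2 ratio of mesenchymal over epithelial RNA, averaged over the 2 arrays of a culture and then over cultures, and given as mean ± SD. A value of 1 means a doubling and a negative value means less RNA in the mesenchymal state. A gene is called higher or lower where its adjusted p was under 0.05 in a limma test of the ratio against 0 (Benjamini-Hochberg over all 17582 features). Of these features 2088 were called, which is 11.9%, with 1048 (5.96%) higher and 1040 (5.92%) lower, and the median log2 ratio was -0.0030. A single probe's dye effect was often larger than its biological ratio (SD over features 0.46 against 0.31 on the log2 scale), and array ratios turned to mesenchymal over epithelial correlated at 0.81 to 0.93 between arrays of one dye orientation and at -0.53 to -0.14 between opposite orientations. The orientation of each array was taken from the dye statement in its deposited name, and the sign of every ratio rests on it. Across features, cultures 2 and 3 resembled each other (r = 0.89) more than either resembled culture 1 (r = 0.61 and 0.65, a description over features that share arrays). Every member probe was flagged well above background for both RNAs on all 6 arrays, and none was saturated. Against the 95th percentile of negative controls, a stricter mark, the dimmer Fos probe was above it on 4 of 6 arrays for each RNA and the other 9 probes on all 6.

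Fos and Jun proteins are leucine zipper factors that pair to form AP-1, which binds a short palindrome in DNA. Fos proteins need a Jun partner, whereas Jun proteins can also pair with one another, and the members differ in how strongly they activate transcription. Egr proteins bind a GC-rich element through zinc fingers. Srf binds the CArG box and works either with ternary complex factors, which respond to ERK signalling, or with myocardin-related factors (MRTFs), which respond to actin, so that it controls both immediate-early genes such as Fos and Egr1 and the genes of the contractile cytoskeleton. In response to serum the early members are known to peak and fall back within hours, while Fosl1 and Jund messages last longer in growing cells. The comparison here is of cells that had been in high serum for a week, not of an acute response.

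Promoter windows of members, each covering 250 bases before to 50 bases after a RefSeq transcript start (build GRCm38.p6), were searched on both strands for 4 motifs: the AP-1 site TGANTCA, the cyclic AMP site TGACGTCA, no match of which can overlap one of the AP-1 site, the Egr site GCGNGGGCG, and the CArG box of Srf. A match is only a string of letters in the window. The AP-1 site occurred in 7.81% of the 32851 windows in the table, the cyclic AMP site in 1.79%, the Egr site in 5.55% and the CArG box in 1.63%. Windows were found for 8 of the 10 members, and Fosl1 and Egr1 were not part of the search. The upstream 250 bases of 3 members are printed 5′ to 3′ on the strand of the gene. Srf was lower and its window carries the motif of its own product. Fosb was not called and its window carries an Egr site. Junb was higher and its window holds none of the 4 motifs. Capitals mark the motif matches.
Srf (chr17:46556163-46556412, minus strand): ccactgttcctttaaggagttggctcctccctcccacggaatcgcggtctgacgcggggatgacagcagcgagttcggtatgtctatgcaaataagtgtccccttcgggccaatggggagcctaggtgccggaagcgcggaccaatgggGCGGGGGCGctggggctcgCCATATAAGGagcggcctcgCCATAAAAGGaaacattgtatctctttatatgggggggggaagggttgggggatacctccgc
Fosb (chr7:19310046-19310295, minus strand): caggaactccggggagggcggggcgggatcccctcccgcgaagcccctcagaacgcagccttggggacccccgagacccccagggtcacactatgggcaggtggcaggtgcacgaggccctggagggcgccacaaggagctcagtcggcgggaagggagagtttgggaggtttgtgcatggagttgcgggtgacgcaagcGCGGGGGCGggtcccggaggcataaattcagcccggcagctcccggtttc
Junb (chr8:84978749-84978998, minus strand): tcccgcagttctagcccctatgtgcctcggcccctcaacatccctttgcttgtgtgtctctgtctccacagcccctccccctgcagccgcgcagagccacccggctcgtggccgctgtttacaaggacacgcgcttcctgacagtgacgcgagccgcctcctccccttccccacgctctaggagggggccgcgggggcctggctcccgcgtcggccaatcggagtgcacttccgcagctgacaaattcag

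In the Srf window the first capitals are an Egr site, GCGGGGGCG, which begins 101 bases before the transcript start. The other capitals are CArG boxes, CCATATAAGG beginning 82 bases and CCATAAAAGG beginning 62 bases before the start. The capitals in the Fosb window are an Egr site that begins 50 bases before the start. Fosl2 also had an Egr site, 79 bases before its start, and 4 of the 5 Egr2 windows, which overlap in part, held a CArG box, at 2 distinct places in the genome. The windows of Fos, Jun, Jund and Junb held no match to any of the 4 motifs. That says only that these letters are not in these windows, and no match here says anything about binding in the cells.

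Of the 8 members measured, 3 rose in the mesenchymal cells (Fosl1, Junb and Egr1, against 5.96% of all features) and 1 fell (Srf, against 5.92%). Fos, Fosb, Jun and Jund were not called. Among the Fos genes measured Fosl1 alone was called, among the Jun genes Junb alone, and Egr1 and Srf were called with opposite signs. Fosl1, Egr1 and Srf kept one sign on all 6 arrays, as did 12% of the 15477 features measured on all 6. The median absolute log2 ratio of the 8 members was 0.36, beside 0.09 over all features tested. No member lay near that median: the uncalled ones had absolute ratios up to 0.12 and the called ones from 0.59 upward. Of all features, 2.58% had a larger absolute ratio than Egr1 and 2.65% a larger one than Fosl1.

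**Figure D1:**
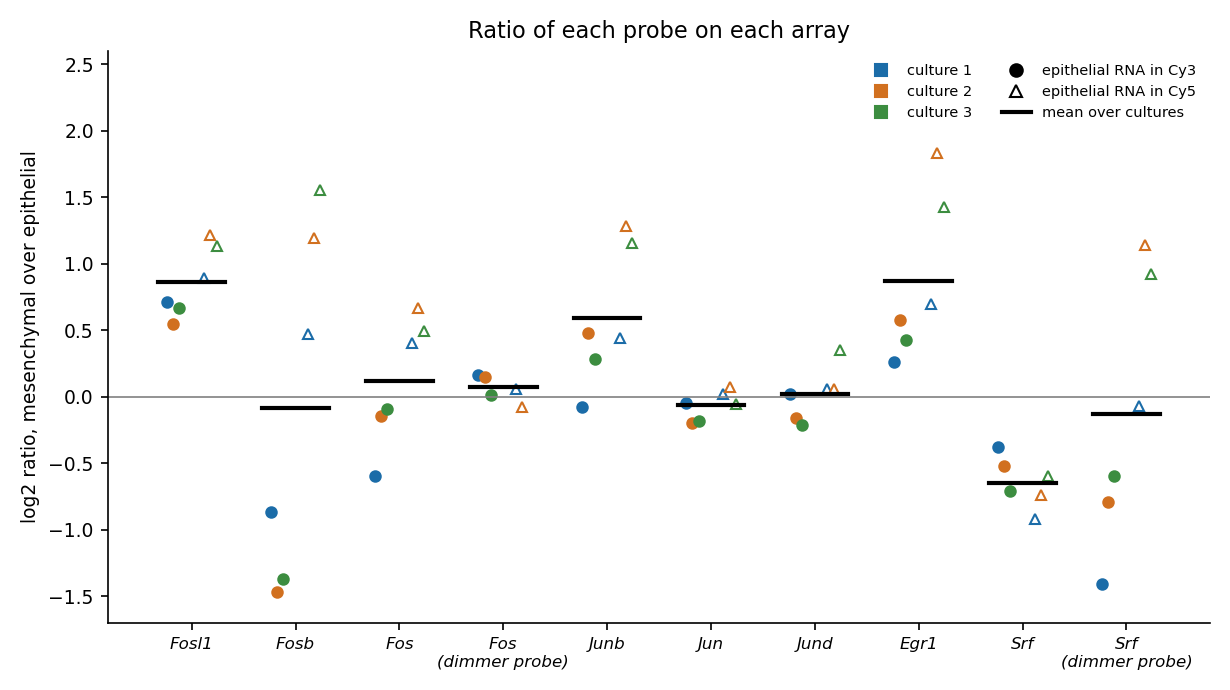
The vertical axis is the log2 ratio of mesenchymal over epithelial RNA for each of the 10 member probes, with 1 point per array coloured by culture and shaped by dye orientation, and a bar for the mean over cultures. Fosl1, Egr1 and the brighter Srf probe lie on one side of 0 on all 6 arrays, whereas the Fosb points split by dye orientation, from -1.47 to 1.55.

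Fosl1 encodes Fra-1, a Fos protein without the strong activation domain of c-Fos that is known from invasive and mesenchymal cells. Its normalised log2 intensity was 11.27, 11.35 and 11.32 in epithelial RNA of cultures 1, 2 and 3, and 12.07, 12.23 and 12.22 in mesenchymal RNA of the same cultures. All 3 mesenchymal values lay above all 3 epithelial ones, and both sets of culture means were tight. Over single arrays the epithelial values ran from 10.96 to 11.68 and the mesenchymal ones from 11.81 to 12.37. The ratio was 0.80, 0.88 and 0.90 by culture, a mean of 0.86 ± 0.05 (1.82-fold, 95% interval 1.62 to 2.04, adjusted p = 0.0010, limma). It was above 0 on all 6 arrays, from 0.55 to 1.22, and it was called under all 19 alternative settings. Fosl1 had the smallest SD over cultures of the 3 members that rose.

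Fosb encodes a Fos protein that is close to c-Fos in sequence. Its log2 intensity was 12.90, 12.48 and 11.96 in epithelial and 12.70, 12.33 and 12.05 in mesenchymal RNA of cultures 1, 2 and 3. The cultures differed more than the states did, and the ranges of the states overlapped. The mean ratio was -0.08 ± 0.15 (adjusted p = 0.67, limma, 95% interval -0.29 to 0.12). Fosb had the largest dye effect of the 8 members, -1.15 on the log2 scale, where 57.1% of all features had a called dye effect. On the 3 arrays with epithelial RNA in Cy3 its ratio was -0.87, -1.47 and -1.37, and on the 3 arrays with epithelial RNA in Cy5 it was 0.47, 1.19 and 1.55. Either orientation taken alone would have given a called Fosb with opposite sign, lower at -1.24 and higher at 1.07.

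Fos encodes c-Fos, the classic serum-induced member. Its brighter probe read 9.84, 9.47 and 9.88 in epithelial and 9.74, 9.73 and 10.09 in mesenchymal RNA, again as log2 intensity in cultures 1, 2 and 3. The ranges overlapped, with a lower mesenchymal value in culture 1 and a higher one in cultures 2 and 3. The ratio was -0.10, 0.26 and 0.20, a mean of 0.12 ± 0.19 (adjusted p = 0.55, limma, interval -0.10 to 0.34). It was called higher when culture 1 was left out (0.23, adjusted p = 0.017, limma). With 2 cultures left, that p leaned more on variance pooled over features than in the main fit, and less on the spread of Fos. On arrays with epithelial RNA in Cy5 alone Fos was also called higher (0.52, adjusted p = 0.017, limma), while those with epithelial RNA in Cy3 alone gave -0.28. The dimmer Fos probe gave 0.11 and 0.03 in cultures 1 and 2, a mean of 0.07 ± 0.05 (n = 2, adjusted p = 0.76 in a limma fit over all 20185 probes, of which 11.3% were called), because 1 array of culture 3 was outlier-flagged there and that culture had no value.

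The gap between Fosl1 and its relatives was present in each culture. The log2 ratio of Fosl1 exceeded that of Fos by 0.90, 0.62 and 0.70 in cultures 1, 2 and 3, a mean of 0.74 ± 0.14, and that of Fosb by 0.94 ± 0.12. An exact two-sided sign-flip permutation test over 3 cultures can give no p below 0.25. That sign-flip test gave 0.25 for each of these and for each of the 5 pairs compared (0.25 after Benjamini-Hochberg). These differences were therefore not shown beyond the direction they took in all 3 cultures. Each pair set a member called higher in these data beside another that was not, so the mean difference adds nothing to the calls.

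**Figure D2:**
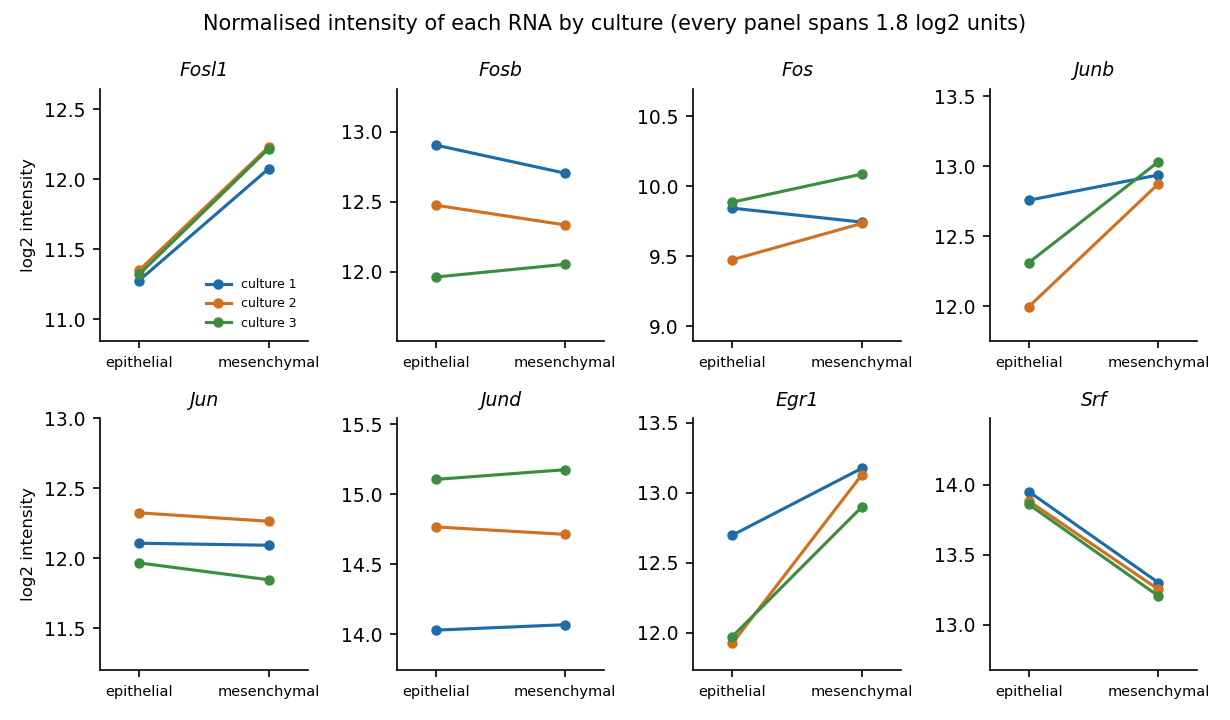
Each panel plots, for 1 member, the normalised log2 intensity of epithelial and mesenchymal RNA in each of the 3 cultures, joined by a line, and every panel spans the same number of log2 units. The lines for Fosl1 climb and those for Srf drop in parallel, while for Junb and Egr1 the cultures lie further apart in epithelial than in mesenchymal RNA.

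Junb encodes JunB, a Jun protein that is a weaker activator than c-Jun and can oppose it. Its log2 intensity was 12.76, 12.00 and 12.31 in epithelial and 12.94, 12.87 and 13.03 in mesenchymal RNA of cultures 1, 2 and 3. As culture means the states did not overlap, although epithelial culture 1 came close to the lowest mesenchymal value. Epithelial RNA read 13.11, 12.03 and 12.22 on the arrays where it was in Cy3. Where it was in Cy5, it read 12.40, 11.96 and 12.40. The lowest mesenchymal value on a single array was 12.51, so single-array values of the states overlapped. The SD over cultures was 0.38 in epithelial and 0.08 in mesenchymal RNA. The ratio was 0.18, 0.88 and 0.72 by culture, a mean of 0.59 ± 0.37 (1.51-fold, 95% interval 1.20 to 1.90, adjusted p = 0.043, limma), and it was above 0 on 5 of 6 arrays. The call was lost without culture 2 (0.45, adjusted p = 0.14), without culture 3 (0.53, adjusted p = 0.22), without the 1 array of culture 3 that had another background setting (0.54, adjusted p = 0.051) and on arrays with epithelial RNA in Cy3 alone (0.23, adjusted p = 0.18), all by limma.

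Jun, which encodes c-Jun, was close to level in every culture. Its log2 intensity was 12.11, 12.32 and 11.97 in epithelial and 12.09, 12.26 and 11.85 in mesenchymal RNA. The mesenchymal value was the lower one in all 3 cultures, but by less than the range of the cultures within either state. Epithelial RNA read 12.11, 12.52 and 11.79 on the arrays where it was in Cy3. Where it was in Cy5, it read 12.10, 12.13 and 12.15. The ratio was -0.01, -0.06 and -0.12, a mean of -0.07 ± 0.05 (adjusted p = 0.69, limma). The 95% interval of -0.23 to 0.10 corresponds to 0.85-fold to 1.07-fold.

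Jund, which encodes JunD, a Jun protein that is usually present also in resting cells, read 14.03, 14.77 and 15.11 in epithelial and 14.07, 14.71 and 15.18 in mesenchymal RNA. The states were nearly identical within each culture. The spread of over 1 log2 unit between cultures came from the arrays with epithelial RNA in Cy3. Epithelial RNA read 13.4, 14.9 and 15.6 there, against 14.7, 14.6 and 14.6 on the arrays with epithelial RNA in Cy5. The ratio was 0.04, -0.05 and 0.07, a mean of 0.02 ± 0.06 (adjusted p = 0.92, limma, interval -0.15 to 0.19). Of all features, 89.1% had a larger absolute ratio. The log2 ratio of Junb exceeded that of Jun by 0.20, 0.94 and 0.84 in cultures 1, 2 and 3 and that of Jund by 0.57 ± 0.40, in both cases least in culture 1.

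Egr1 encodes a zinc-finger factor of the immediate-early response. Its log2 intensity was 12.70, 11.93 and 11.97 in epithelial and 13.18, 13.13 and 12.90 in mesenchymal RNA of cultures 1, 2 and 3. As culture means the states did not overlap. Epithelial culture 1 stood above the other epithelial cultures, and the SD over cultures was 0.43 in epithelial and 0.15 in mesenchymal RNA. Epithelial RNA read 13.14, 12.34 and 11.95 on the arrays where it was in Cy3. Where it was in Cy5, it read 12.26, 11.51 and 12.00. The lowest mesenchymal value on a single array was 12.37, so single-array values of the states overlapped. The ratio was 0.48, 1.21 and 0.93, a mean of 0.87 ± 0.37 (1.83-fold, 95% interval 1.45 to 2.31, adjusted p = 0.012, limma), and it was above 0 on all 6 arrays, from 0.26 to 1.83. The call was lost without culture 3 (0.84, adjusted p = 0.071, limma), with the ratio nearly as large.

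Egr1 and Junb shared the order of the cultures: both ratios were lowest in culture 1 and highest in culture 2. The order was not particular to them, as Fos, which was not called, and the dimmer Srf probe also had it. How many of all features had it was not counted. Fosl1, with 0.80 in culture 1, did not vary in this way. The SD of ratios over all features was 0.37, 0.35 and 0.32 in cultures 1, 2 and 3. Why the Egr1 and Junb ratios were lowest in culture 1 was not tested.

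Srf was the 1 member that fell, and its probes disagreed. On the brighter probe the log2 intensity was 13.95, 13.89 and 13.86 in epithelial and 13.30, 13.25 and 13.21 in mesenchymal RNA of cultures 1, 2 and 3. All 3 epithelial values lay above all 3 mesenchymal ones. The ratio was -0.65, -0.63 and -0.65, a mean of -0.65 ± 0.01 (1.56-fold lower, adjusted p = 0.0026, limma), and it was below 0 on all 6 arrays, from -0.92 to -0.38. The dimmer Srf probe gave -0.74, 0.17 and 0.17 in cultures 1, 2 and 3, a mean of -0.13 ± 0.52 (adjusted p = 0.78 in the limma fit over all probes), so it was lower in culture 1 only. This probe had a dye effect of -0.80, beside 0.11 for the brighter one, and was above 0 on 2 of 6 arrays. With both probes averaged Srf was at -0.39 and was not called (adjusted p = 0.076, limma).

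Egr1 and Srf stood apart within each culture. The log2 ratio of Egr1 exceeded that of the brighter Srf probe by 1.13, 1.84 and 1.58 in cultures 1, 2 and 3.

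**Figure D3:**
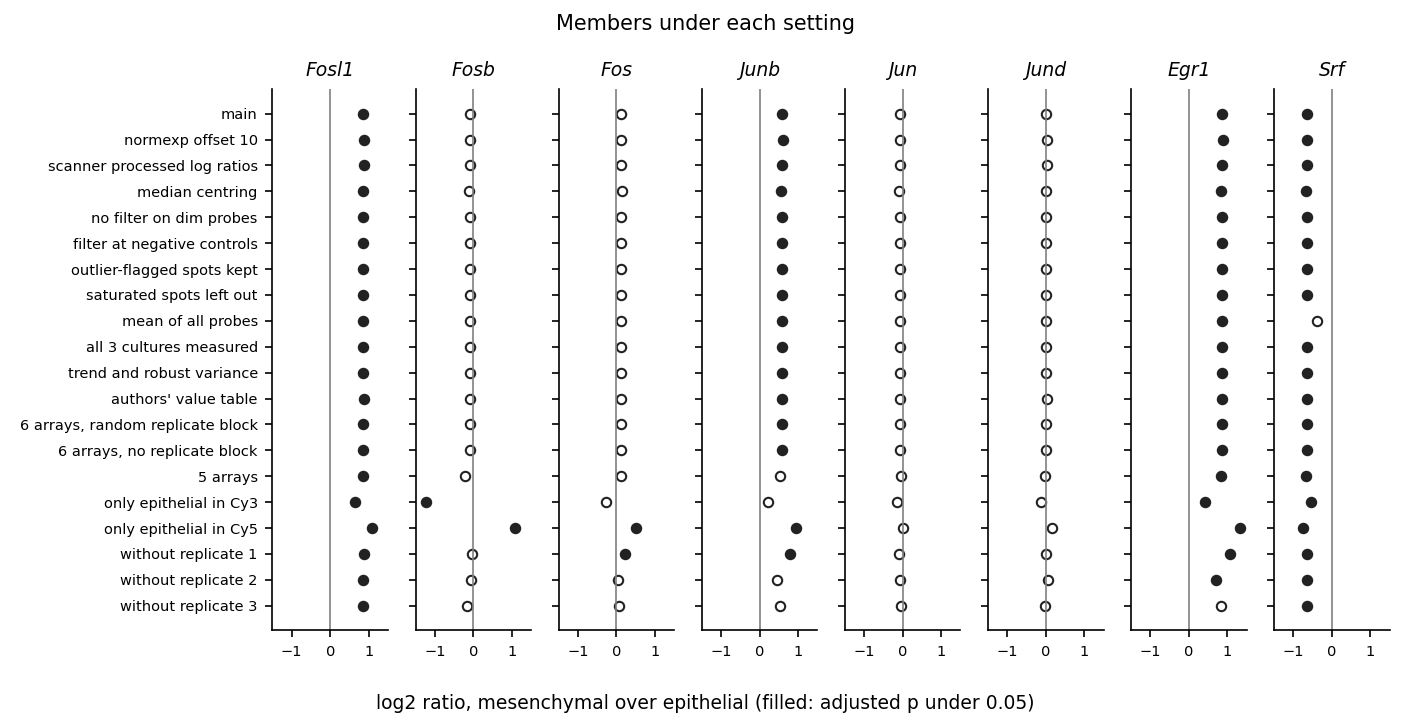
Each panel plots, for 1 member, the log2 ratio of mesenchymal over epithelial RNA under the main setting and 19 alternatives (vertical axis), with filled points where adjusted p was under 0.05. Fosl1 is filled throughout, Egr1 and Srf are open under 1 alternative each and Junb under 4, and the single dye orientations pull Fosb to -1.24 and 1.07.

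Proteins that join or regulate these factors gave the following counts, each from a list of genes chosen for its role. Of 19 listed AP-1 partners outside the Fos and Jun genes, 10 were measured, 0 were higher and 2 lower, with a median of -0.02. The lower ones were Atf3, a stress-induced leucine zipper repressor and itself an immediate-early gene (-0.64 ± 0.07, adjusted p = 0.0032, limma), and Maf (-0.63 ± 0.26, adjusted p = 0.015), whose call was lost without culture 3 and with epithelial RNA in Cy5 alone (-0.34). Of 20 listed kinases and stability factors of Jun, 12 were measured, 1 was higher (Cops5, a subunit of the COP9 signalosome that binds c-Jun, 0.38 ± 0.07) and 1 lower (Rps6ka2, an ERK-dependent kinase, -0.35 ± 0.05). Both calls were lost without culture 2 or culture 3. The other Rps6ka2 probe gave 0.10, and on arrays with epithelial RNA in Cy3 alone neither gene was called (Cops5 -0.12, Rps6ka2 -0.25).

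Of 5 listed Egr relatives and Nab corepressors, 3 were measured and 2 were lower. Nab1, a corepressor that binds Egr proteins, was at -0.44 ± 0.18 (adjusted p = 0.028, limma), but its other probe gave -0.07, its call was lost with its probes averaged, without culture 2 or culture 3 and with culture as a random replicate block (adjusted p = 0.054), and it changed sign to 0.24 on arrays with epithelial RNA in Cy5 alone. Wt1, a zinc-finger factor related to Egr proteins and a marker of the ovarian surface, fell by 0.89 ± 0.10 (adjusted p = 0.0012, limma). Nab2, which Egr1 induces, was at 0.37 and was not called (adjusted p = 0.12, limma).

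Of 14 listed Srf cofactors, 11 were measured, with 3 higher and 2 lower and a median of -0.10. The higher ones included Elk3, a ternary complex factor (0.64 ± 0.11, adjusted p = 0.0040, limma, other probe -0.06, not called at 0.29 with both averaged or at 0.21 with epithelial RNA in Cy3 alone), and Csrp2, a LIM-domain partner (0.51 ± 0.20, adjusted p = 0.020), whose call was lost without culture 2 or culture 3, on 5 arrays and with epithelial RNA in Cy3 alone. Hopx, a homeodomain protein that restrains Srf, fell by 1.73 ± 0.21 (adjusted p = 0.00031, limma). Elk4, another ternary complex factor, was at -0.48 ± 0.21 (adjusted p = 0.027) but at 0.42 on arrays with epithelial RNA in Cy5 alone, and its call was lost without culture 3. Mrtfa, the actin-sensing coactivator, was at 0.04 and was not called.

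Other genes of the early serum response moved in both directions. Of 51 listed immediate-early genes outside the members, 36 were measured, with 6 higher, 8 lower and a median of 0.01. The called ones with the largest ratios were Ccn2, a matricellular growth regulator (-1.72 ± 0.24), Plk2, a polo-like kinase (-1.57 ± 0.27), Btg1, an antiproliferative factor (0.92 ± 0.37), and Sgk1, a serum-regulated kinase (0.86 ± 0.34). The epithelial signal of this Ccn2 probe was saturated on 4 of 6 arrays, and the other Ccn2 probe gave 0.10. Sgk1 was at -0.17 on arrays with epithelial RNA in Cy3 alone. Of 21 listed feedback genes of ERK signalling, 13 were measured, with 4 higher and 2 lower and a median of 0.03. Errfi1, an inhibitor of the EGF receptor, rose by 0.70 ± 0.06 and Dusp4, a MAP kinase phosphatase, by 0.63 ± 0.18, the latter not called without culture 3. Dusp14 (-0.81 ± 0.39) and Dusp8 (-0.53 ± 0.22), also phosphatases, were lower but took the opposite sign, 0.48 and 0.09, on arrays with epithelial RNA in Cy5 alone, and neither was called without culture 3. The other Dusp14 probe gave -0.90.

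Genes known as targets of the members were read the same way. Of 31 listed AP-1 targets, 19 were measured, with 8 higher and 2 lower and a median of 0.07. Spp1, which encodes osteopontin, rose by 2.22 ± 0.24 and Hmga2, a chromatin protein, by 1.90 ± 0.37, each with its probe saturated for mesenchymal RNA on 2 of 6 arrays. Ereg, an EGF receptor ligand, rose by 1.21 ± 0.05, and Cd44, a hyaluronan receptor, by 0.90 ± 0.26, with 1.06 on its other probe, but Cd44 was at 0.34 and not called on arrays with epithelial RNA in Cy3 alone. Of 20 listed Egr1 targets, of which Cd44 is also one, 17 were measured, with 4 higher, 4 lower and a median of -0.0032. F3, which encodes tissue factor, rose by 2.51 ± 0.19 (2.12 on its other probe), whereas Pdgfa, a growth factor chain, fell by 1.79 ± 0.04.

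Of 33 listed Srf and MRTF targets, 29 were measured, with 2 higher and 8 lower, and the median was -0.19 beside -0.0030 over all features. The lower ones included Zyx, the focal adhesion protein zyxin (-1.30 ± 0.25), and Acta2, smooth muscle actin (-1.19 ± 0.05), both with the probe saturated for epithelial RNA on 5 of 6 arrays. Fhl1, a LIM-domain protein of the contractile cytoskeleton, fell by 0.60 ± 0.06 but was at -0.22 and not called on arrays with epithelial RNA in Cy5 alone. Mylk, myosin light chain kinase, fell by 0.71 ± 0.17, with 0.03 on its other probe, and was not called with both probes averaged (-0.49).

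**Figure D4:**
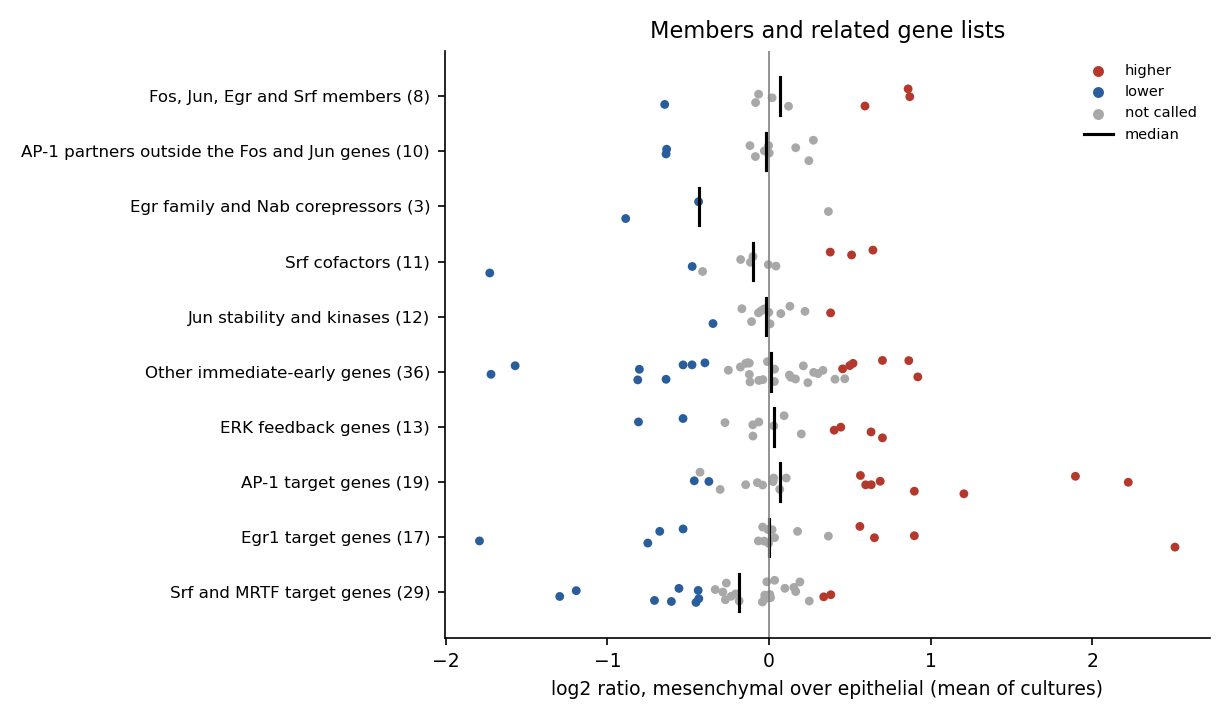
Each point is a measured gene placed at its mean log2 ratio of mesenchymal over epithelial RNA, in rows by list with the number of measured genes in brackets, coloured by call, with a bar at the median. The members spread to both sides of 0, and the Srf and MRTF targets, with a median of -0.19, have 8 lower and 2 higher genes.

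Markers were read beside these results. Of 20 listed markers of ovarian surface epithelium and mesothelium, 12 were measured, 0 were higher and 9 lower, with Krt14, a keratin, at -3.22 ± 0.35 and Gpm6a, a membrane glycoprotein, at -2.98 ± 0.22. Their mean log2 intensity ranged over cultures from 14.26 to 14.70 in epithelial and from 13.02 to 13.48 in mesenchymal RNA. All 12 were above the 95th percentile of negative controls on all 6 arrays in epithelial RNA and 11 of them in mesenchymal RNA, the exception being Krt14 on 1 array. Of the 12, 3 were saturated on at least 1 array in epithelial RNA and 1 in mesenchymal RNA. Saturation of epithelial RNA alone makes a fall look smaller. With saturated spots left out, 6 of 11 measured were lower. Markers of fibroblasts and stroma gave 1 higher (Pdgfrb, a PDGF receptor, 2.50 ± 0.17) and 4 lower of 10 measured, the latter with Col1a2, a collagen chain, at -3.18 ± 0.12 on a probe whose epithelial signal was saturated on 4 of 6 arrays, with -0.02 on its other probe. Granulosa markers gave 4 lower of 12, with Inhba and Gja1 at -0.88 and -0.81 but at 0.75 and 0.46 on arrays with epithelial RNA in Cy5 alone. The other Gja1 probe gave -0.34. By limma 0 of 7 leukocyte and 0 of 6 endothelial markers were called (0 and 2 at an unadjusted p under 0.05), and of 9 smooth muscle markers Acta2 alone was. The mean log2 intensities of these other lists ranged from 10.29 to 11.51 over cultures and states, beside 10.96 over all features. Most of their probes, 5 to 11 per list, were above the negative-control percentile on all 6 arrays in each RNA. From 91.5% to 96.4% of all probes passed this mark on a given array and dye. It therefore does not set these markers apart from other probes. The part of these differences in the members' ratios was not tested.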

How the data were processed

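Total RNA of 3 cultures in both states was measured on 6 arrays. Per the file headers, Agilent Feature Extraction (A.7.1.1 where given) wrote the deposited files, which hold spot mean and local background intensities in linear units, as scanned. They also hold log10 ratios of Cy5 over Cy3 that this software computed from dye-normalised intensities. The authors' deposited value table equals the turned mean of these log10 ratios (r = 1 over probes), with medians of 0.00555, -0.0101 and -0.00233. Limma is named, without a version, in the submitters' processing notes. A genome build is not given in the sources used here.

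From the intensities, log2 ratios were computed with normexp (offset 50) and within-array loess (limma 3.58.1, R 4.3.3), control spots having no weight. All ratios were expressed as mesenchymal over epithelial, and a culture's 2 arrays were averaged as 1 replicate. Outlier-flagged spots were left out (61 to 467 probes on 5 arrays, 1639 on the array of culture 3 with mesenchymal RNA in Cy3, which had another background setting), and a culture needed both arrays. A probe had to be well above background for the same RNA on at least 4 arrays (43 removed), a feature needed at least 2 cultures, and the brightest probe stood for a gene. Each ratio was tested against 0 with lmFit and eBayes. Normalised intensities of each RNA are single-channel values after loess within and Aquantile between arrays. The number of cultures limits the precision.

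All members are named whatever their values, and from each related list up to 4 called genes with the largest ratio (2 from marker lists). A gene that this rule takes is not reported here, and no other was put in its place. The members and lists were chosen with earlier results of these data known. Sequences and positions are from RefSeq tables of GRCm38.p6. The steps from array ratios onward were tested on simulated data with 17582 features, of which 17382 were unchanged. There 0% of changes of 0.3 on the log2 scale were called, 60% of those of 0.6 and 70% of those of 0.9. A smaller share of features was changed there than was called in the data. Background correction, loess, filters and noise of single arrays were not simulated, and the simulated dye effect cancelled exactly in a culture's mean. These percentages therefore need not hold for the data. The 19 alternatives cover background, normalisation, filters, probe choice, dye orientation, replicate block, the value table and leaving out each culture.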

Additional observations from a re-analysis of the deposited data

How the results depend on the processing

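Fosl1 was called under all 19 alternatives (0.64 to 1.08), Egr1 under 18 (0.42 to 1.32), Srf under 18 (-0.75 to -0.39) and Junb under 15 (0.23 to 0.96), with no change of sign. Leaving out each culture in turn gave 818 to 5154 called features (393 to 2866 higher, 425 to 2288 lower) and 2 to 5 called members (1 to 4 higher, 1 to 1 lower), with 5154 features called without culture 1, 1149 without culture 2 and 818 without culture 3. Each of these leave-out fits had 2 cultures and leaned more on variance pooled over features than the main fit did. Averaging all probes of a gene left 0 members lower. The arrays with epithelial RNA in Cy3 alone called 7076 features (3219 higher, 3857 lower) and 2 members lower. Those with epithelial RNA in Cy5 alone called 5879 (3437 higher, 2442 lower) and 5 members higher. A single orientation keeps the dye effect in the ratio, and 57.1% of features had a called dye effect.

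Ratios that changed sign were as follows. With saturated spots left out, Ccn2 rested on its other probe at 0.10. Jund was at -0.031 on 5 arrays, at -0.12 with epithelial RNA in Cy3 alone and from -0.0072 to 0.054 as each culture was left out. With epithelial RNA in Cy3 alone, Fos was at -0.28, Cops5 at -0.12 and Sgk1 at -0.17. With epithelial RNA in Cy5 alone, Fosb was at 1.07, Jun at 0.012, Nab1 at 0.24, Elk4 at 0.42, Dusp8 at 0.095, Dusp14 at 0.48, Inhba at 0.75 and Gja1 at 0.46. A fit to the 6 arrays with culture as a random replicate block (and 1 with no replicate block) kept each member's call (of the list genes named, Nab1 lost its call with the block), and the consensus correlation was -0.24. With 3 cultures, small changes of Fos, Fosb, Jun and Jund within the intervals given could be missed.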
